A study of Mus musculus with 20 samples.

Results

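The immunoglobulin constant region genes and Jchain were examined in liver and kidney of mice treated with a chemical reprogramming cocktail. The 10 genes, of 57010 in the count table, were taken by name, and each name matched 1 Ensembl identifier: Jchain, the heavy chain genes Igha, Ighm, Ighg1, Ighg2b, Ighg2c and Ighg3, and the light chain genes Igkc, Iglc1 and Iglc2. The study asked whether the 7c cocktail, which alters the transcriptome of cultured fibroblasts, also acts on aging tissue. The 20 libraries were 6 of 7c and 4 of vehicle in each tissue. All animals were male UM-HET3 mice aged 12 months at treatment, and all carried a subcutaneous osmotic minipump for 28 days. In the 7c groups the pump held repsox, tranylcypromine, DZNep, CHIR99021, forskolin and TTNPB, each at a dose of 0.1 mg/kg/day, and valproate at 1 mg/kg/day. In the vehicle groups it held the solvent alone, equal parts DMSO and PEG300. UM-HET3 mice descend from a cross of several inbred strains, so the animals are not genetically alike, at the immunoglobulin loci as elsewhere. Whole tissue was sequenced, so fewer antibody-producing cells and less of a transcript per cell cannot be told apart.

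An antibody is built of paired heavy and light chains, and the constant gene joined to the heavy chain sets its class: Ighm gives IgM, Igha gives IgA and the Ighg genes give the IgG subclasses. B cells carry antibody on their surface, while plasma cells fill most of their secretory pathway with it and are the main source of abundant immunoglobulin mRNA in a tissue. Jchain encodes the small joining chain that links IgM into pentamers and IgA into dimers, the forms that the receptor Pigr carries across epithelia. In mucosal tissues IgA-producing plasma cells predominate, whereas IgM is the class made before switching.

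The classes that take up the joining chain differ from IgG at the very end of the secreted heavy chain. The last 60 coding bases of the secreted transcripts, stop codon included, are shown to mark this feature in the 2 heavy chain genes with the highest levels and in 2 of the IgG genes. They were read from the minus strand of the GRCm39 reference, and the capitals mark the codon of the cysteine that bonds to the joining chain.
Igha: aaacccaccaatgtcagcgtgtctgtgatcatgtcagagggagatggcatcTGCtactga
Ighm: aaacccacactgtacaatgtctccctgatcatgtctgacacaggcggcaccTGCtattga
Ighg1: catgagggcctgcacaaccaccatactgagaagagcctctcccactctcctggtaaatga
Ighg2c: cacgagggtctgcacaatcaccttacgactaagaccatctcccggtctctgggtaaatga
These stretches lie at chr12:113222388-113222447 for Igha, chr12:113384487-113384546 for Ighm, chr12:113292596-113292655 for Ighg1 and chr12:113251009-113251068 for Ighg2c, each in the coding part of an exon. Igha and Ighm were identical at 41 of the 60 positions, while Igha shared 13 to 15 positions with the 4 Ighg genes. Ighg1 and Ighg2c shared 46 positions, and none of the 4 Ighg genes had the cysteine codon at that place. The heavy chain genes lie side by side on the minus strand of chromosome 12, in the order Igha (chr12:113218450-113223856), Ighg2c (chr12:113248945-113252552), Ighg2b (chr12:113266585-113271553), Ighg1 (chr12:113288860-113294143), Ighg3 (chr12:113319844-113324852) and Ighm (chr12:113382178-113386350). Igkc lies at chr6:70703419-70703950, Iglc1 at chr16:18880368-18880821, Iglc2 at chr16:19017146-19019101 and Jchain at chr5:88667668-88675750. No stretch of 100 bases in the reference transcripts of these genes recurred exactly in another constant gene. Of the stretches of 50 bases, 4.15% in Ighg2b, 5.49% in Ighg2c, 1.58% in Ighg3 and 0.393% in Ighg1 recurred in another Ighg gene, and 7.65% in Iglc2 recurred in Iglc3, so reads there could be assigned to either. Igkc overlaps Gm30211 and Gm68839, Iglc1 overlaps 2010309G21Rik on the opposite strand, and Iglc2 overlaps Iglj2, and how the counting treated shared reads is not given in the sources used here. Reads from alleles that differ from the reference, such as the Ighg2a allele that some strains carry at the place of Ighg2c, may have been counted less fully, which was not tested.

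Total counts ran from 28383359 to 34153084 in the livers and from 27855849 to 64872451 in the kidneys, with the largest library in 7c kidney 1. Among genes with 1 to 20 counts, 75.07 to 83.25% of these values in each library were even numbers. Whether both mates of a read pair were counted is not given in the sources used here and was not tested. The 5 liver markers, Alb among them, summed to at least 82897 CPM in every liver (CPM, counts scaled by library size with TMM factors over all 20 libraries) and at most 265.6 in every kidney. The 5 kidney markers, Umod among them, summed to at least 6641 CPM in every kidney and at most 0.138 in every liver, so the tissues matched their labels.

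The members were ordered by level per kilobase of exon, the scale on which different genes can be compared. In kidney the order by median CPM per kilobase was Igkc at 287.9, Igha at 76.6, Jchain at 9.84, Ighm at 5.80, Iglc1 at 5.09, Iglc2 at 1.28, Ighg2c at 0.763, Ighg2b at 0.614, Ighg1 at 0.403 and Ighg3 at 0.0675. Igkc exceeded Igha, and Igha exceeded Jchain, in 10 of 10 kidneys. Jchain exceeded Ighm in 6 of 10 kidneys and Ighm exceeded Iglc1 in 7 of 10, so these neighbours did not differ beyond their spread, and the same held among Iglc2, Ighg2c, Ighg2b and Ighg1. In liver the order was Igkc at 32.8, Ighm at 31.02, Iglc1 at 2.23, Jchain at 2.21, Iglc2 at 0.814, Igha at 0.581, Ighg1 at 0.174, Ighg2c at 0.122, Ighg2b at 0.0701 and Ighg3 at 0.0351. Ighm stood above Iglc1 in 10 of 10 livers, while Igkc stood above Ighm in 8 of 10 and Iglc2 above Igha in 6 of 10. Iglc1 stood above Jchain in only 2 of 10 livers, against the order of their medians. Among the Ighg genes of the liver the order changed from library to library.

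**Figure D1:**
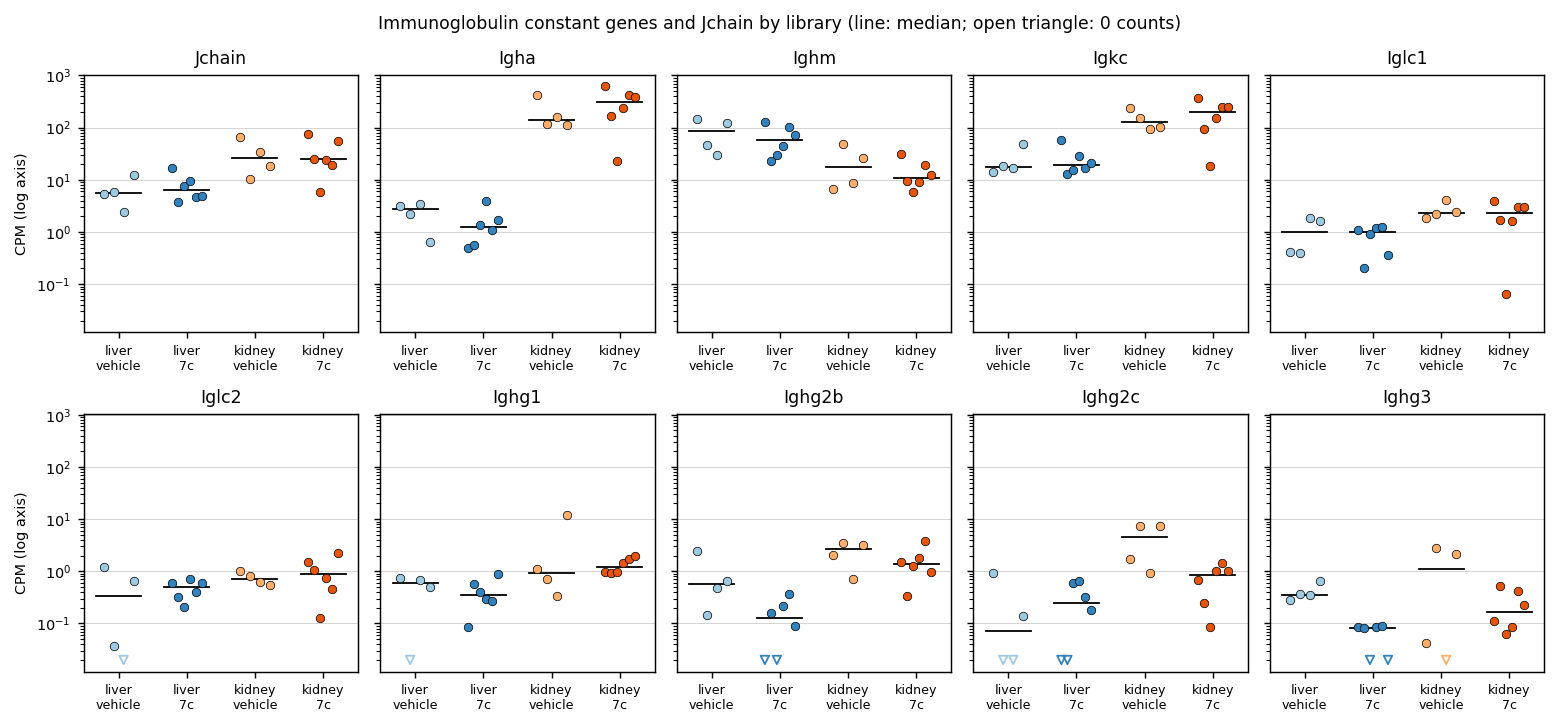
The CPM of each of the 10 genes is plotted on a log axis by library, with a point per library, a line at the group median and an open triangle for 0 counts, over 4 vehicle and 6 7c libraries in each tissue. Igha separates the kidneys, all at or above 23.2 CPM, from the livers, all at or below 3.98 CPM, and Ighm lies higher in liver.

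Igha transcripts were far higher in kidney than in liver, and Ighm transcripts were higher in liver. Jchain and Igkc were also higher in kidney in both treatment groups, and no other member was called in both. The kidney and liver libraries of each treatment were compared by edgeR's quasi-likelihood test with Benjamini-Hochberg adjustment over 18598 genes. Of the 10 members 7 passed the count filter in both tissues. Ighg2b, Ighg2c and Ighg3 passed it in kidney alone, so their tissue values are a description and are not counted among the calls given here. In vehicle mice 5 of the 7 members passed an adjusted p of 0.05, 4 higher and 1 lower in kidney, where 57.9% of all tested genes passed. In 7c mice 5 of the 7 passed, again 4 higher and 1 lower in kidney, where 64.0% of all tested genes passed. Nothing is read from these shares, and the sizes carry the description. The median log2 difference over the 7 members was 2.31 in vehicle and 1.66 in 7c mice, beside 0.11 and 0.10 over all tested genes. The 4 fitted groups share 1 estimate of the spread, and the same-numbered liver and kidney libraries were treated as separate samples, although they may come from 1 mouse.

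**Figure D2:**
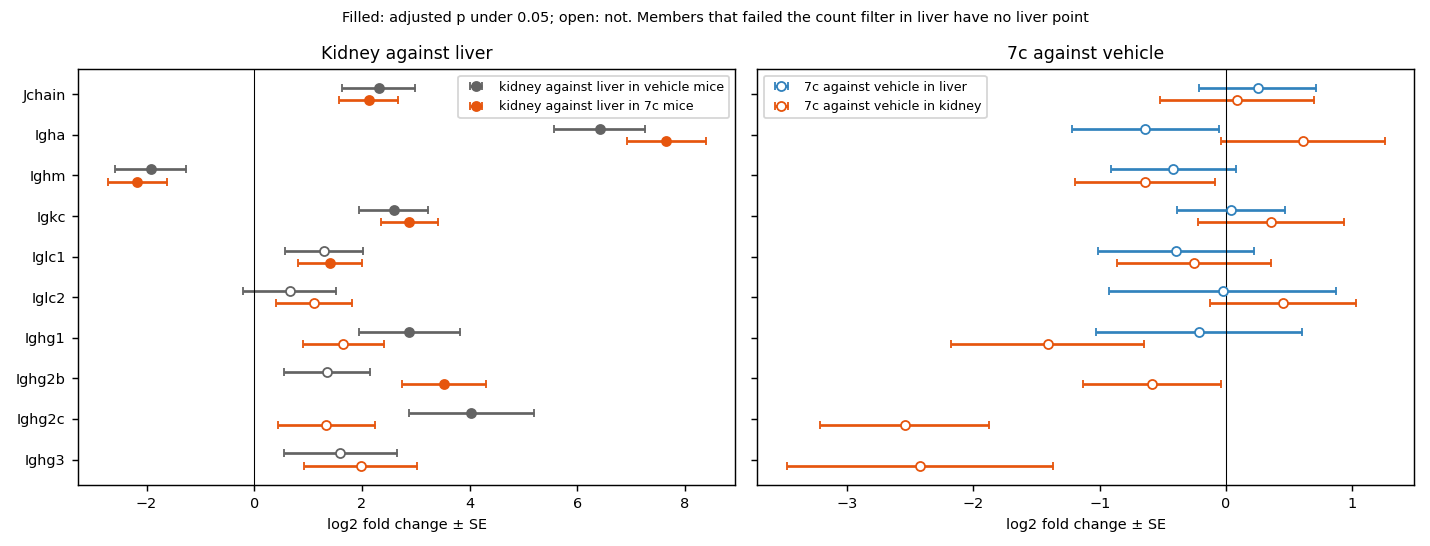
The log2 fold change with its standard error is plotted for each gene, for kidney against liver in each treatment group on the left and for 7c against vehicle in each tissue on the right, filled where the adjusted p is under 0.05, which on the left is no more than a description for Ighg2b, Ighg2c and Ighg3. On the left Igha lies at 6.42 and 7.65 and Ighm at -1.92 and -2.17, and on the right every point is open.

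Igha, the IgA heavy chain, had 419.1, 117.1, 159.0 and 111.4 CPM in vehicle kidneys 1 to 4. Vehicle livers 1 to 4 had 3.18, 2.26, 3.38 and 0.639 CPM. In 7c kidneys the lowest value was 23.2, the median 309.1 and the highest 621.9 CPM, against 0.504, 1.23 and 3.98 CPM in 7c livers. All 10 kidneys lay above all 10 livers, and the kidney median was 132 times the liver median. The log2 difference was 6.42 ± 0.84 (SE) in vehicle mice (edgeR adjusted p = 9.4e-07) and 7.65 ± 0.73 in 7c mice (edgeR adjusted p = 5.53e-09). The call held in every alternative tried, with log2 differences of 5.94 to 6.74 and 7.14 to 8.27.

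Ighm, the IgM heavy chain, ran the other way. Vehicle livers 1 to 4 had 144.9, 45.6, 29.6 and 124.0 CPM, and vehicle kidneys 1 to 4 had 6.65, 49.1, 8.54 and 26.8 CPM. The 7c livers ran from 22.9 through a median of 57.7 to 126.0 CPM, and the 7c kidneys from 5.89 through 10.9 to 31.8 CPM. In 7 of the 10 kidneys Ighm lay below every liver, and the kidneys that overlapped were vehicle kidneys 2 and 4 and 7c kidney 1. The log2 difference was -1.92 ± 0.66 in vehicle mice (edgeR adjusted p = 0.0167) and -2.17 ± 0.54 in 7c mice (edgeR adjusted p = 0.00147). In vehicle mice the call was lost without replicate 1, at -1.24 with an adjusted p of 0.147, and without replicate 4, at -1.78 with an adjusted p of 0.0648, each left out in both tissues.

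Jchain, the joining chain, had 66.0, 10.5, 33.5 and 18.7 CPM in vehicle kidneys 1 to 4 and 5.30, 5.83, 2.41 and 12.4 CPM in vehicle livers. In 7c mice it had 5.76, 24.8 and 75.6 CPM as the lowest, median and highest kidney and 3.71, 6.26 and 16.9 CPM in liver. In 8 of the 10 kidneys Jchain exceeded every liver, and the exceptions were vehicle kidney 2 and 7c kidney 3. The log2 difference was 2.31 ± 0.67 (edgeR adjusted p = 0.00563) in vehicle mice and 2.13 ± 0.55 (edgeR adjusted p = 0.00178) in 7c mice. Without vehicle replicate 1, the highest vehicle kidney, it was 1.60 in vehicle mice, with an adjusted p of 0.0763.

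Among the light chains, Igkc, the kappa chain, was the most abundant. It had 239.3, 152.3, 93.2 and 101.7 CPM in vehicle kidneys 1 to 4, and vehicle livers had 14.1, 18.1, 16.8 and 48.0 CPM. The 7c kidneys had a lowest, median and highest value of 18.1, 200.1 and 369.6 CPM, and the 7c livers of 13.0, 18.9 and 58.96 CPM. All kidneys except 7c kidney 3 exceeded every liver. The log2 difference was 2.60 ± 0.64 (edgeR adjusted p = 0.00153) in vehicle mice and 2.88 ± 0.53 (edgeR adjusted p = 6.27e-05) in 7c mice. Iglc1 and Iglc2, lambda chains, reached at most 4.10 and 2.25 CPM in any library. Iglc1 was 1.29 ± 0.72 higher in kidney in vehicle mice (edgeR adjusted p = 0.133) and 1.41 ± 0.60 in 7c mice (edgeR adjusted p = 0.0457). The 7c call was lost in edgeR without any one of 7c replicates 1, 2, 4, 5 and 6 or vehicle replicate 4, at 1.15 to 1.61. It was also lost over all libraries with limma-voom, at 1.09 and an adjusted p of 0.304, and with the replicate block, at 1.24 and an adjusted p of 0.133. Iglc2 differed by 0.66 ± 0.86 and 1.11 ± 0.71, which did not pass in either group.

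The IgG heavy chain genes were low in both tissues. Ighg1 had 1.10, 0.717, 0.340 and 12.1 CPM in vehicle kidneys 1 to 4, and at most 0.907 CPM in any liver. Its log2 difference of 2.88 ± 0.94 in vehicle mice (edgeR adjusted p = 0.0118) fell to 0.60 without replicate 4, with an adjusted p of 0.571, and in 7c mice it was 1.66 ± 0.76 (edgeR adjusted p = 0.0606). With the replicate number as a block the vehicle call was lost, at 1.99 with an adjusted p of 0.103, and the 7c difference passed, at 1.80 with an adjusted p of 0.0364. DESeq2 and edgeR's likelihood ratio test also called it in 7c mice, with adjusted p of 0.0234 and 0.0384. The other IgG genes failed the count filter in liver and entered through kidney, so their log2 differences are given with no test. Ighg2b differed by 1.36 ± 0.80 in vehicle and 3.52 ± 0.78 in 7c mice. Ighg2c differed by 4.03 ± 1.16 and 1.34 ± 0.91, and Ighg3 by 1.60 ± 1.06 and 1.98 ± 1.05. Without vehicle replicate 1 the vehicle differences of Ighg2b and Ighg2c were 2.55 and 6.68, and without vehicle replicate 2 they were 0.73 and 3.21. Without the filter the interaction of treatment and tissue did not pass, at 2.16 ± 1.02 for Ighg2b (edgeR adjusted p = 0.851) and -2.69 ± 1.29 for Ighg2c (edgeR adjusted p = 0.860). In liver the 10 libraries held at most 20 counts of Ighg1, 61 of Ighg2b, 23 of Ighg2c and 18 of Ighg3, and 1, 2, 4 and 2 libraries held 0 counts, so a liver level of these genes is close to what this depth can resolve.

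The makeup of the heavy chains was compared as shares of counts per kilobase over the 6 heavy chain genes, given as a description with no test. In the kidneys Igha took 56.1 to 96.3% of the heavy chain total, with a median of 91.9%. In the livers it took 0.281 to 7.23%, and Ighm took 89.4 to 99.6%. Neither range overlapped between the tissues. Within kidney 3 libraries stood apart: Ighm took 33.3% in vehicle kidney 2, 20.8% in vehicle kidney 4 and 24.4% in 7c kidney 3, and at most 7.26% in the other kidneys. The same 3 kidneys had the largest IgG shares, 10.6%, 18.0% and 7.41%, where no other kidney exceeded 2.11%. Vehicle kidney 2 drew its IgG mostly from Ighg2c, at 7.11% of the heavy chain total. Vehicle kidney 4 drew it from Ighg2c at 8.10% and Ighg1 at 6.84%, and 7c kidney 3 from Ighg2b at 3.74% and Ighg1 at 2.96%.

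**Figure D3:**
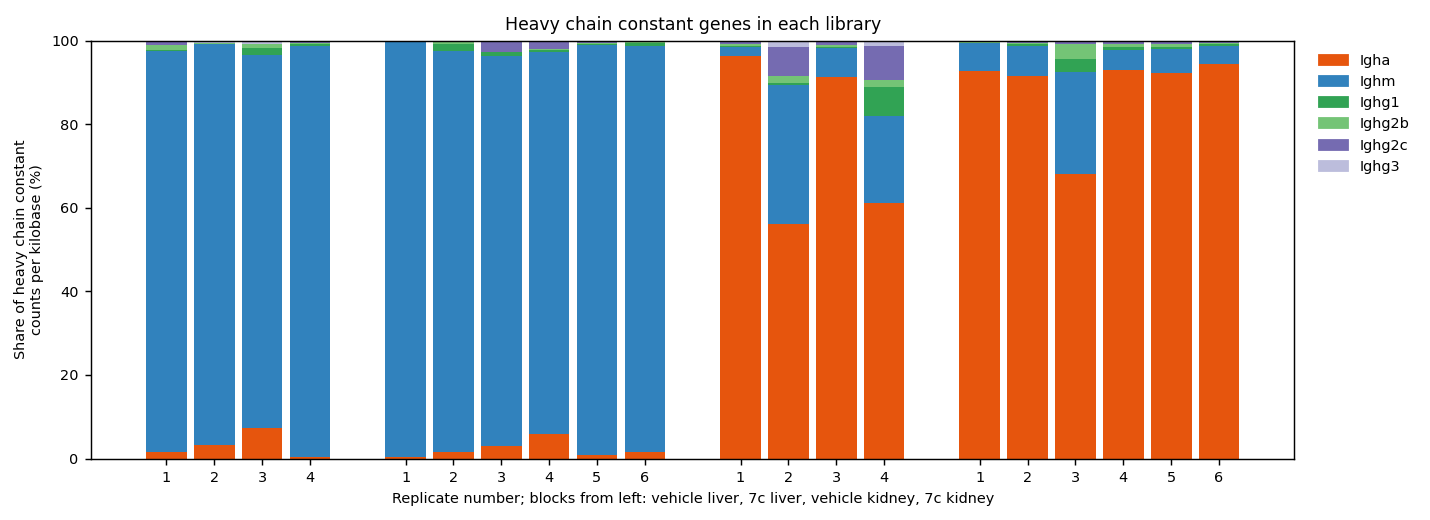
Each bar is a library and is divided by the share of the 6 heavy chain genes in percent of heavy chain counts per kilobase, in blocks of vehicle liver, 7c liver, vehicle kidney and 7c kidney. The livers are at least 89.4% Ighm, the kidneys at least 56.1% Igha, and vehicle kidneys 2 and 4 and 7c kidney 3 hold visible shares of Ighm and Ighg genes.

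In absolute terms 7c kidney 3 was the kidney with the least immunoglobulin mRNA. It was the lowest kidney for 7 of the 10 members, and the members summed to 55.6 CPM in it, against 286.5 to 1108 CPM in the other kidneys. The summed level in livers was 41.5 to 204.1 CPM. Vehicle kidney 4 was the highest kidney for Ighg1, and vehicle kidney 2 was the highest for Ighm, Ighg2c and Ighg3. Ighg2c was 7.37 and 7.33 CPM in vehicle kidneys 2 and 4, and 0.0854 to 1.73 CPM in the other 8 kidneys.

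Light chain, joining chain and variable segment counts were set against the heavy chain. Light chain constant counts per kilobase were 2.66 to 3.74 times the heavy chain counts in kidneys and 0.368 to 2.23 times in livers, so that all 10 kidneys exceeded all livers. The lowest ratios were those of vehicle liver 1 at 0.368 and 7c liver 5 at 0.643, in both of which Ighm was high and Igkc was not. This separation was lost on counts not divided by length, where the ratio was 0.541 to 0.860 in kidneys and 0.103 to 0.612 in livers. Lambda genes took 1.02 to 5.42% of light chain counts per kilobase in kidney and 2.69 to 11.5% in liver, and 7 of 10 kidneys lay below every liver. Jchain per kilobase was 0.0447 to 0.208 of the Igha and Ighm total in kidney and 0.0270 to 0.184 in liver, and these ranges overlapped.

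Variable segments are the part of the gene that each B cell clone chooses and mutates, and many clones can share a segment. The count table lists 183 heavy chain segments (Ighv) and 160 kappa segments (Igkv). Kidneys held 142 to 3479 Ighv counts on 27 to 94 segments, and livers held 60 to 258 counts on 16 to 43 segments. For kappa the kidneys held 265 to 10904 counts on 37 to 83 segments and the livers 139 to 982 counts on 16 to 57. More segments are detected where more counts are sampled, and the depth of the segments was not matched between tissues. In relation to the constant genes, Igkv counts were 28.6 to 109 per 100 Igkc counts in livers and 17.9 to 42.1 in kidneys. Ighv counts were 2.59 to 17.1 per 100 heavy chain constant counts in livers and 4.44 to 10.4 in kidneys, and the 2 lowest livers were again vehicle liver 1, at 2.59, and 7c liver 5, at 4.50.

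**Figure D4:**
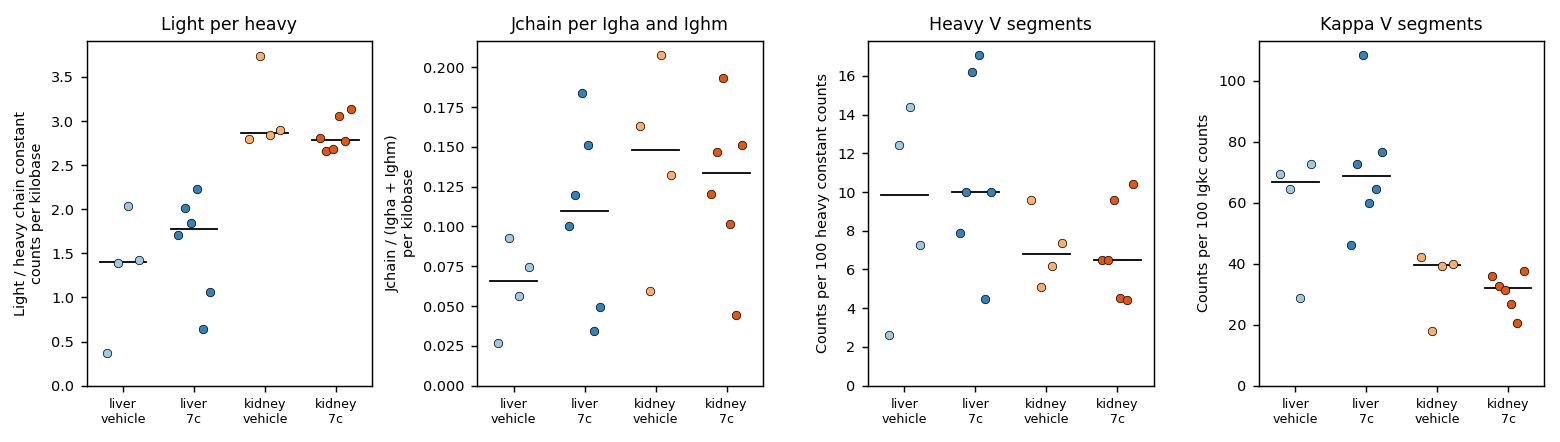
From left, the panels plot by library the light to heavy chain ratio per kilobase, Jchain over Igha and Ighm per kilobase, Ighv counts per 100 heavy chain constant counts and Igkv counts per 100 Igkc counts, with a line at the group median. Light to heavy ratios lie at or above 2.66 in kidney and at or below 2.23 in liver, and the lowest liver in the first panel is also the lowest in the third.

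The leading Ighv segment took a median of 15.2% of Ighv counts in livers and 9.27% in kidneys, and the leading Igkv segment 12.3% and 8.09%. A single segment held over 20% in 4 libraries, and in 5 when pseudogenes were left out. In 7c liver 3 Ighv14-1 held 36.6% of 131 counts (exact 95% interval 28.4 to 45.5) and Igkv8-27 held 38.3% of 418 counts (33.6 to 43.1). In 7c liver 5 Ighv3-6 held 37.3% of 102 counts (27.9 to 47.4) and Igkv3-5 held 20.6% of 238 counts (15.6 to 26.3). These intervals cover counting error only, and the 2 mates of a fragment may both be counted, which makes them too narrow. In vehicle liver 4 Igkv10-96 held 24.3% (21.7 to 27.1) and Ighv4-2 held 20.9% (16.1 to 26.4), and in 7c kidney 3 Ighv1-14 held 33.8% of 142 counts (26.1 to 42.2). Without pseudogenes the leading Ighv segment was Ighv3-8 at 27.3% in 7c kidney 3, Ighv2-3 at 23.2% in vehicle liver 4 and Ighv1-80 at 20.7% in vehicle kidney 1. The reference annotates Ighv4-2 and Ighv1-14 as pseudogenes, and a segment of another strain that aligns best there would be counted under that name, which was not tested. Ighv4-2 also led in vehicle liver 3, with 18.8% of 144 counts, and Igkv10-96 also led in 7c kidney 5, with 5.73%. In any other library Ighv1-14 held at most 13.3%, Igkv10-96 at most 10.8%, Ighv14-1 at most 6.06%, Ighv3-6 at most 6.19%, Igkv8-27 at most 5.0% and Igkv3-5 at most 4.15%.

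The comparison of 7c with vehicle asked whether treatment changed the antibody transcripts of either tissue. In neither tissue did a member pass the test. In liver 0 of the 7 members that passed the filter were called, where 0.00666% of 15012 genes were called, and in kidney 0 of 10, where 0% of 17749 genes were called. The adjusted p was 0.9996 for every tested member in liver and 0.997 in kidney by edgeR's quasi-likelihood test. At an unadjusted p under 0.05 there were 0 of 7 members in liver, where 3.76% of all tested genes had one, and 2 of 10 in kidney, where 2.61% had one. DESeq2, limma-voom and edgeR's likelihood ratio test also called 0 members in both tissues. The median log2 difference of the members was -0.22 over the 7 tested in liver and -0.42 over the 10 in kidney, beside 0.0017 and -0.0057 over all tested genes. It was 0.030 and -0.15 with limma-voom, and leaving out each replicate moved it from -0.63 (without vehicle replicate 2) to -0.095 (without vehicle replicate 3) in liver and from -0.53 (without 7c replicate 1) to -0.10 (without vehicle replicate 4) in kidney. The value of -0.10 is over 9 members, as Ighg3 then failed the filter, so part of that move is a change in the members.

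The abundant members had wide errors. In liver the log2 difference of 7c from vehicle was 0.25 ± 0.46 (SE) for Jchain, -0.64 ± 0.58 for Igha, -0.42 ± 0.49 for Ighm and 0.04 ± 0.43 for Igkc. In kidney it was 0.09 ± 0.61 for Jchain, 0.61 ± 0.65 for Igha, -0.64 ± 0.55 for Ighm and 0.36 ± 0.58 for Igkc. The lambda genes lay at -0.39 ± 0.62 for Iglc1 and -0.03 ± 0.90 for Iglc2 in liver, and at -0.25 ± 0.61 and 0.45 ± 0.58 in kidney. Exact two-sided permutation tests over the 210 splits of 10 libraries gave p of 0.329 or more for Jchain, Igha, Ighm, Igkc, Iglc1 and Iglc2 in both tissues. Igha in kidney shows the spread: the 7c kidneys ran from below all vehicle kidneys, at 23.2 CPM, to above all of them, at 621.9 CPM. Without vehicle replicate 1 the kidney difference of Igha was 1.25, and without 7c replicate 1 it was 0.29.

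The IgG genes gave the lowest unadjusted p-values. In kidney Ighg2c had 1.73, 7.37, 0.934 and 7.33 CPM in vehicle mice 1 to 4 and a lowest, median and highest value of 0.0854, 0.838 and 1.43 CPM in 7c mice. Vehicle kidneys 2 and 4 were high, vehicle kidney 1 lay just above the highest 7c kidney, and vehicle kidney 3 lay within the 7c range, so the groups overlapped. Its log2 difference was -2.55 ± 0.67, with an unadjusted edgeR p of 0.00238 that became 0.997 on adjustment and an exact permutation p of 0.0333 among 20 such tests, 1 per member and tissue. Over the alternatives the adjusted p ran from 0.149 to 1. Ighg3 in kidney differed by -2.42 ± 1.05 (unadjusted edgeR p = 0.0390, adjusted 0.997), from 0.0416, 2.80, 0 and 2.17 CPM in vehicle kidneys 1 to 4 and at most 0.513 CPM in 7c kidneys, with an exact permutation p of 0.538. It was -0.28 with limma-voom and -1.67 with the replicate block, and the gene failed the filter without vehicle kidney 2 or 4, the only high ones, and also without 7c kidney 2, 5 or 6. Ighg1 differed by -1.41 ± 0.76, and by 0.88 without vehicle kidney 4. Ighg2b differed by -0.59 ± 0.54. Without vehicle kidney 2 or without vehicle kidney 4 the Ighg2c difference was -2.17, and both of these kidneys were also high in Ighm. Vehicle kidney 2 also had the highest summed blood markers of the vehicle kidneys, at 1053 CPM against 245.9 to 494.6, B cell markers, at 269.5 against 131.4 to 184.6, T cell markers, at 10.3 against 3.29 to 4.48, and lymphoid stroma markers, at 9.76 against 4.14 to 4.71. Vehicle kidney 4 had the lowest blood and T cell sums, and 7c kidneys reached 1808, 340.4, 10.6 and 9.87 CPM. The part of these cells in the IgG values was not tested.

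In liver the IgG genes other than Ighg1 did not pass the filter, and Ighg3 is given by its counts. Ighg3 had 2, 2, 0, 2, 2 and 0 counts in 7c livers 1 to 6 and 7, 10, 10 and 18 counts in vehicle livers 1 to 4. All 6 7c livers lay below all 4 vehicle livers, and the exact permutation p was 0.00476, the smallest that 210 splits can give. It was the lowest of the permutation tests run, 1 per member and tissue, which were not adjusted for their number. How many of all genes separate the 2 liver groups completely was not counted, so nothing is read from this separation alone. Without the filter edgeR put the Ighg3 difference at -2.76 ± 1.10 (unadjusted p = 0.0209, adjusted p = 0.641), so it was not called among all genes. Total counts of the 7c livers were 28383359 to 30571119 and those of the vehicle livers 31670440 to 34153084. Ighg2b in liver had 0, 4, 0, 5, 8 and 2 counts in 7c livers and 61, 4, 14 and 18 in vehicle livers, with an exact permutation p of 0.0429 and an adjusted p of 0.641 without the filter. Ighg2c in liver had 0 to 15 counts in 7c and 0 to 23 in vehicle libraries. Ighg1 in liver differed by -0.22 ± 0.82.

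Whether the effect of 7c differed between the tissues was tested as an interaction over 14163 genes. Of the 7 members tested 0 were called, where 0.00706% of all genes were called, and 0 had an unadjusted p under 0.05, where 2.49% of all genes had one. The largest interaction in size was that of Igha, at 1.27 ± 0.94 on the log2 scale (edgeR adjusted p = 0.9999), followed by Ighg1 at -1.19 ± 1.17. Isotype shares overlapped between 7c and vehicle as well. Igha took 88.6% ± 10.1 (SD, n = 6) of kidney heavy chain counts per kilobase in 7c mice and 76.3% ± 20.5 (SD, n = 4) in vehicle mice. Ighm took 95.9% ± 3.07 of those in 7c livers and 94.9% ± 3.85 in vehicle livers. The summed IgG share in kidney was 2.43% ± 2.50 in 7c and 7.95% ± 7.91 in vehicle mice.

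Within a tissue the members varied together to different degrees. Over the 10 kidneys, with treatment means removed from log2 CPM, Pearson's r was 0.97 between Igha and Igkc, 0.87 between Igha and Jchain and 0.87 between Igha and Iglc1, given as a description. Igkc ranked first of 17748 genes in likeness to Igha. Over the 10 livers Igkc and Jchain gave 0.84, Ighm and Jchain 0.56, and Igha and Jchain -0.37. These libraries share the depth and the RNA quality of each sample, and the figures are not tests. In kidney Igkc moved with the IgA heavy chain, while in liver Igha and Igkc gave -0.43. By the same measure the 5 genes outside the immunoglobulin loci most like Jchain were Shroom3, Pianp, Frat1, Tsr2 and Vipr1 in kidney, from 0.93 to 0.90, and Cfap36, Rpl6, Serbp1, Sgf29 and Bloc1s2 in liver, from 0.94 to 0.92. Those most like Ighm were Bmp4, Pacsin1, Wdr27, 2810408A11Rik and Hoxc9 in kidney, from 0.93 to 0.91, and Ccdc3, Tmem70, Arsg, Slc35a1 and Supv3l1 in liver, from 0.95 to 0.93. Jchain and Ighm had no gene in common in either list. Cd79a, the signalling partner of surface antibody, gave 0.93 with Igkc in kidney, rank 12. The likeness of the other B cell genes and of the plasma cell genes to the members is not given here, so nothing is read from this pair.

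Genes that mark the producing cells were counted beside the members. Of 15 plasma cell genes 14 were tested between tissues, and in vehicle mice 2 were higher and 6 lower in kidney, while in 7c mice 2 were higher and 5 lower, shares near or below the 57.9% and 64.0% of all tested genes. The higher genes were Eaf2, a transcription elongation factor, at 3.04 ± 0.35 and 2.97 ± 0.29 on the log2 scale, and Prdm1, the regulator of plasma cell fate, at 2.06 ± 0.50 and 1.41 ± 0.40. The lower genes were led by Sdc1, a surface proteoglycan that hepatocytes also carry, at -5.07 ± 0.16 and -5.11 ± 0.13, and by Txndc5, a disulfide isomerase of the secretory pathway, at -1.65 ± 0.10 and -1.66 ± 0.08. Mzb1, a chaperone of antibody assembly, had medians of 0.748 and 0.708 CPM in vehicle and 7c kidneys and 0.408 and 0.309 CPM in livers, and differed by 0.46 ± 0.96 and 0.91 ± 0.81, which did not pass. Irf4, another regulator of the plasma cell program, was at most 1.12 CPM in every library. Xbp1, which drives the secretory program and is also used by hepatocytes, was lower in kidney, at -1.36 ± 0.17 and -1.32 ± 0.14. The receptor Tnfrsf17 of long-lived plasma cells was at 0.142 CPM or less in every library and was not tested.

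**Figure D5:**
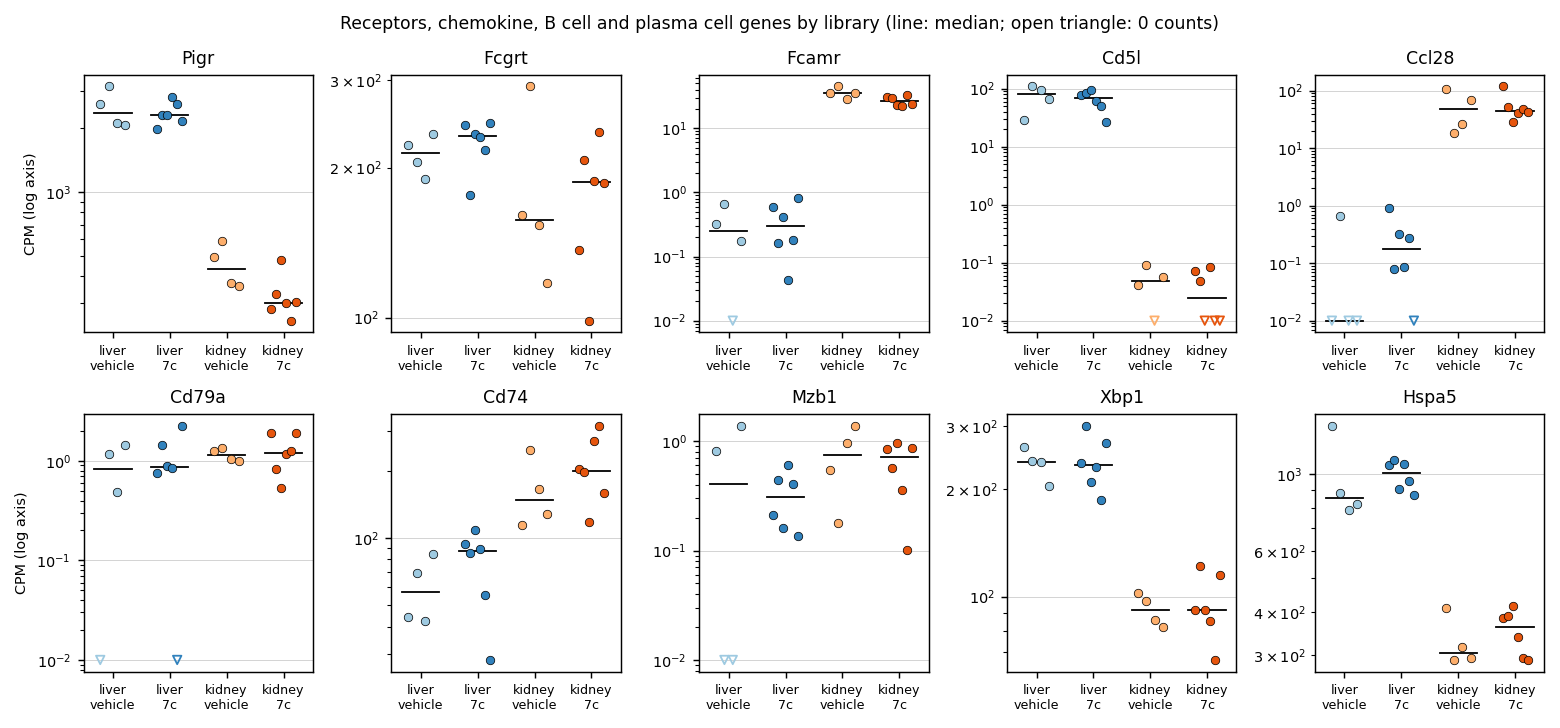
The CPM of 10 genes tied to antibody transport, B cells and secretion is plotted on log axes of differing range by library, with a line at the group median and an open triangle for 0 counts. Pigr, Cd5l, Xbp1 and Hspa5 lie higher in every liver than in any kidney, and Fcamr and Ccl28 lie higher in every kidney than in any liver.

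B cell genes other than Cd74 were low in both tissues, at most 6.0 CPM in any library. Of 17 tested, 3 were higher and 1 lower in kidney in vehicle mice, and 3 were higher and 2 lower in 7c mice, shares below the 57.9% and 64.0% of all tested genes. The higher genes were Ebf1 at 4.03 ± 0.70 and 4.35 ± 0.59, Cd74 at 1.44 ± 0.36 and 1.46 ± 0.29 and Ciita at 1.37 ± 0.51 and 1.12 ± 0.42. The gene lower in both groups was Bank1, a B cell scaffold protein, at -3.10 ± 0.67 and -2.11 ± 0.52. Ebf1 is also used by stromal cells, and Cd74 and Ciita serve antigen presentation in many cells. The defining genes Ms4a1, Cd79a and Cd79b were called in neither group, and reached at most 0.727, 2.27 and 3.18 CPM in any library. The summed B cell list was 131.4 to 340.4 CPM in kidneys, most of it Cd74, and 48.6 to 117.6 CPM in livers. Its part in the tissue difference of the members was not tested.

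Of 11 receptors of antibody tested, 2 were higher and 6 lower in kidney in vehicle mice, where 57.9% of all tested genes were called, and 2 were higher and 7 lower in 7c mice, where 64.0% were called. Pigr, which moves joining-chain-bearing IgA and IgM across epithelia, had medians of 2351 and 2303 CPM in vehicle and 7c livers and 432.1 and 300.3 CPM in kidneys, a log2 difference of -2.45 ± 0.21 and -2.87 ± 0.18. Cd5l, a macrophage protein that binds IgM, was at 26.7 CPM or more in every liver and at most 0.0896 in every kidney. Fcamr, a receptor for IgA and IgM, was at 22.3 CPM or more in every kidney and at most 0.816 in every liver. Tfrc, the transferrin receptor that can bind IgA, was higher in kidney by 0.72 ± 0.30 and 1.15 ± 0.24. Fcgrt, the neonatal Fc receptor that recycles IgG, differed by -0.24 ± 0.24 and -0.36 ± 0.20 and passed in neither group. Fcgr2b, the inhibitory IgG receptor, differed by -0.38 ± 0.19 and -0.34 ± 0.16 and passed in neither. Fcgr3, an activating IgG receptor of myeloid cells, was lower in kidney, at -1.22 ± 0.39 and -1.38 ± 0.32, and so was Trim21, a cytosolic antibody receptor, at -0.83 ± 0.22 and -1.21 ± 0.19.

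Among 17 genes of plasma cell niches and class switching, 11 were tested between tissues, with 3 higher and 2 lower in kidney in vehicle mice, where 57.9% of all tested genes were called, and 4 higher and 3 lower in 7c mice, where 64.0% were. Ccl28, a chemokine that draws IgA-producing plasma cells into mucosal tissue, had 18.7 to 119 CPM in kidneys and at most 0.923 in livers, a log2 difference of 8.37 ± 0.91 in vehicle and 7.59 ± 0.71 in 7c mice. Its receptor Ccr10 was at most 0.729 CPM in every library. Cxcl12, which holds plasma cells in marrow and is made by many stromal cells, was lower in kidney, at -2.54 ± 0.18 and -2.39 ± 0.15, and so was Itga4, an integrin chain of white blood cells, at -2.06 ± 0.30 and -2.23 ± 0.25. Tnfsf13b, a survival factor of B cells, was higher in kidney in 7c mice, at 1.57 ± 0.42, and stood at 0.76 ± 0.51 in vehicle mice, which did not pass. All 10 chaperones and secretory genes were lower in kidney in both groups, against the same 57.9% and 64.0% called in either direction, among them Hspa5, the chaperone that holds unpaired heavy chains, at -1.57 ± 0.18 and -1.50 ± 0.15, and Ern1, the sensor that activates Xbp1, at -2.64 ± 0.22 and -2.98 ± 0.18.

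None of these list genes was called between 7c and vehicle in either tissue or in the interaction. In kidney 2 of 10 receptors tested had an unadjusted p under 0.05, Pigr at -0.50 ± 0.19 (adjusted 0.997) and Fcamr at -0.43 ± 0.15 (adjusted 0.997), beside 0 of 14 plasma cell and 0 of 17 B cell genes. In liver 0 of 10 receptors, 0 of 11 plasma cell and 1 of 12 B cell genes, Fcer2a at 1.76 ± 0.74 (adjusted 0.9996), had one. Of the marker lists of other tissues, 5 of 5 fat genes and 3 of 5 liver genes had an unadjusted p under 0.05 in kidney, where 2.61% of all tested genes had one, and 0 were called. The fat genes summed to 27.7 to 39.8 CPM in vehicle and 40.6 to 108.6 CPM in 7c kidneys, and the liver genes to 162.6 to 236.1 and 63.2 to 265.6 CPM. T cell genes had 0 of 7 and blood genes 0 of 5 there. Lymphoid stroma genes had 0 of 3, and Glycam1, a marker of lymph node vessels, was at 0.0427 CPM or less in every kidney. The part of these lists in the kidney values of the members was not tested. Of the other constant genes Ighd, the IgD chain of naive B cells, had 0.854 to 2.00 CPM in kidneys and at most 2.63 CPM in livers and was called in no comparison, Ighe and Iglc3 were at most 0.585 and 0.562 CPM in any library and Iglc4 was at 0 CPM in all.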

How the data were processed

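Liver and kidney of 10 mice gave 20 poly(A) RNA-seq libraries. The authors deposited whole-number read counts per Ensembl gene, not normalised. The submitters' processing notes name STAR 2.7.11b, featureCounts 2.0.6 and GRCm39. The settings for strand, shared reads and read pairs are not given in the sources used here. Of 57010 identifiers 56310 matched GENCODE vM39, which gave names and loci. Groups came from the sample labels, which do not say whether equal replicate numbers in liver and kidney mark 1 animal.

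The study's filter was used: a gene needed 10 or more counts in no fewer than 50% of a tissue's libraries. Genes were tested with edgeR 4.0.16 (TMM, quasi-likelihood test, R 4.3.3) with Benjamini-Hochberg adjustment over all tested genes at 0.05. Each tissue was fitted alone for 7c against vehicle. The tissue contrasts used all 20 libraries and genes passing in either tissue, and the interaction used genes passing in both. The fits were tested on simulated data. CPM values, counts scaled by library size, used TMM factors over 20 libraries, and log2 CPM a prior count of 2. Exact two-sided permutation tests used all 210 splits, and the exact intervals of the segment shares came from scipy 1.17.1. Composition was taken per kilobase of annotated exon. Alternatives were the likelihood ratio test of edgeR, DESeq2 1.42.0, voom from limma 3.58.1, other filters and scaling, a replicate block, both tissues in 1 fit and leaving out each replicate.

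The members and gene lists were chosen with earlier results of these data known. The text names all members, the first 4 genes of the plasma cell, B cell and receptor lists (1 of them is not reported here), up to 4 called genes by p per list and the 5 genes most like Jchain and Ighm. Hspa5, Tfrc, Tnfsf13b, Fcer2a, Tnfrsf17, Ccr10, Glycam1 and the other constant genes were named after their values were seen. Depth was 27855849 to 64872451 counts, and intervals cover counting error only.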

Additional observations from a re-analysis of the deposited data

Results flagged for a closer look

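Of 80 groups of values screened for a library far from the rest of its group, 12 held one. The groups are not independent, since shares of 1 library are tied to each other, and the rate expected by chance was not tested. In kidney, Igha in vehicle replicate 1 stood at 419.1 CPM, with the next vehicle kidney at 159.0, and Ighg1 in vehicle replicate 4 stood at 12.1 CPM, with the next at 1.10. In liver, Igha in 7c replicate 4 had 3.98 CPM, with the next at 1.72, and Ighg2c in vehicle replicate 1 had 0.938 CPM, with the next at 0.142. Igkc in 7c liver 1 had 58.96 CPM, with the next at 28.3, and Igkc in vehicle liver 4 had 48.0 CPM, with the next at 18.1.

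Of the 12, 4 came from 7c kidney 3, the kidney with the fewest immunoglobulin counts. Igha took 68.2% of its heavy chain counts per kilobase, against 91.5% or more in the other 7c kidneys. Ighm took 24.4%, with the next at 7.26%, and the Ighg genes took 7.41%, with the next at 2.11%. Its leading Ighv segment held 33.8% of 142 counts, with the next 7c kidney at 9.78%. Vehicle kidney 2 had a light to heavy chain ratio of 3.74, with the next at 2.89, and 17.9 Igkv counts per 100 Igkc counts, with the next at 39.2.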

How the results depend on the processing

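Of 767 member values under alternatives, 699 kept their direction and side of the threshold, 47 values that were not called changed sign, 14 calls were lost and 7 were gained. These totals include the tissue values of Ighg2b, Ighg2c and Ighg3, which entered through kidney and are a description only. Among the gained is Ighg2b between tissues in vehicle mice without vehicle replicate 1, which is not read as a call. The tissue calls of Igha and Igkc in both groups and of Jchain and Ighm in 7c mice were kept in all of these alternatives. No member was called between 7c and vehicle, or in the interaction, under any alternative. Counts of all called genes in liver, kidney and the interaction, 1, 0 and 1, became 6, 18 and 16 with DESeq2, 7, 14 and 22 when edgeR's likelihood ratio replaced its quasi-likelihood test, and 4, 3 and 11 without a filter. With limma-voom kidney gave 2 and the interaction 0, with filterByExpr liver gave 2 and the interaction 4, and with both tissues in 1 fit liver gave 12 and kidney 20. Leaving out each replicate gave 0 to 2 in liver, 0 to 3 in kidney and 0 to 6 in the interaction. The causes were not tested. Low counts limit the Ighg genes in liver.

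The labels do not say that replicate numbers mark animals. Same-numbered liver and kidney libraries correlated at 0.0130 to 0.259 over 14163 genes, over 0.1 in 7 of 10 pairs, and the own number was highest in 8 of 10. Over the 200 most variable genes it was highest in 10 of 10, at 0.365 to 0.691, a hint from the data that equal numbers mark 1 mouse. As not every pair passed 0.1, pairing was not assumed and the relation of liver to kidney levels was not run. Under the replicate block 0 genes were called in liver, kidney and the interaction, and 10381 and 11589 between tissues in vehicle and 7c mice. Within a tissue the block ties 7c and vehicle animals that share only a number, which correlated at -0.034 to 0.023 in liver and -0.063 to 0.301 in kidney, and across tissues it ties same-numbered libraries of 1 treatment. Within a tissue, 7c replicates 5 and 6 have no vehicle library of their number, so they add nothing to the blocked difference of 7c from vehicle. The block gave -0.019 for Igha, -0.42 for Igkc, -0.083 for Iglc2 and -0.10 for Jchain in kidney, 0.89 for Iglc2 in liver, -0.27 for Iglc1 and -0.56 for Iglc2 in the interaction, and -0.15 for Ighg3 between tissues in vehicle mice. The tissue difference of Ighg1 was 1.99 in vehicle mice (adjusted p = 0.103) and 1.80 in 7c mice (adjusted p = 0.0364), and that of Iglc1 in 7c mice was 1.24 (adjusted p = 0.133).

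With limma-voom the sign changed to 0.037 for Ighg1 and -0.028 for Igkc in kidney, 0.46 for Ighg1 and 1.51 for Iglc2 in liver, -0.90 for Ighg3 between tissues in vehicle mice, and 0.065 for Ighm, -0.044 for Igkc, -0.43 for Iglc1 and -1.37 for Iglc2 in the interaction. With both tissues in 1 fit Iglc2 in liver was 0.0060. Leaving out each replicate, the kidney difference of 7c from vehicle ran from -1.79 to 0.88 for Ighg1, -1.03 to 0.058 for Ighm, -0.49 to 0.041 for Iglc1 and -0.30 to 0.71 for Jchain. In liver it ran from -0.63 to 0.046 for Ighg1, -0.38 to 0.63 for Igkc, -0.67 to 0.016 for Iglc1, -0.44 to 0.13 for Iglc2 and -0.11 to 0.79 for Jchain. The interaction ran from -1.81 to 1.09 for Ighg1, -0.90 to 0.68 for Ighm, -0.40 to 0.85 for Igkc, -0.16 to 0.45 for Iglc1 and -0.88 to 0.56 for Jchain.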
